A study of Mus musculus with 18 samples.

Results

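The 10 transcription factor genes described here are Pou2f3, Gfi1b, Ascl2, Hmx2, Hmx3, Spib, Sox9, Ovol3, Spdef and Pou6f1. They were chosen by name, with earlier results of these data known, as regulators linked to tuft cells, the cells that the airway literature calls brush cells, and they are 10 of the 26327 gene symbols in the deposited count table. RNA was sequenced from cells sorted out of the trachea of naïve mice in 18 libraries. All groups, the reference cells included, came from B6 mice with the transgene Tg(RP23-268L19-EGFP)2Mik, a bacterial artificial chromosome whose Chat locus drives eGFP. Brush cells (7 libraries) were sorted for EpCAM and eGFP and against CD45. EpCAM+ epithelial cells (7 libraries) were sorted for EpCAM and against CD45, with a gate that as worded does not leave out eGFP-positive cells, and CD45+ hematopoietic cells made up 4 libraries. The tissue was digested with dispase and then papain, and dead cells were removed with propidium iodide. Age, sex and the number of animals per library are not in the labels used here, so p-values measure the spread between these libraries, which may be technical in part. The brush group is defined by the reporter, so a tuft cell without eGFP would fall outside it.

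Tuft cells are rare chemosensory cells of mucosal linings that use the signalling chain of taste receptor cells. Their identity is set by DNA-binding proteins of several families: POU homeodomain proteins such as Pou2f3, without which tuft cells do not form, zinc finger repressors such as Gfi1b, homeobox proteins, ETS proteins, SOX proteins and basic helix-loop-helix proteins. Several of these factors also serve in other cells of the trachea or of the blood, among them B cells, goblet cells, cartilage and the cells that make platelets and red cells. The comparisons below ask where each factor was transcribed among the sorted populations.

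The depth of a library was 838328 to 6031711 counts for brush cells, 2442601 to 6087184 for EpCAM+ cells and 371652 to 7438791 for CD45+ cells, with 24 to 63.5% of the counts of brush libraries, 12.2 to 34.1% of EpCAM+ and 20.7 to 43.4% of CD45+ libraries in ribosomal RNA genes. In 5 of 7 brush libraries that share was above every EpCAM+ library. With these genes left out all 10 factors were called higher in brush than in EpCAM+ cells. So were 2454 of all 13462 genes tested in that setting. The part of ribosomal RNA in the levels of the factors was not tested. Every library was closest to another of its own group, but brush replicate 4 (63.5% ribosomal RNA), EpCAM+ replicate 5 and CD45+ replicate 1 had the lowest median Spearman correlation with their group, at 0.849, 0.81 and 0.759 against 0.895 to 0.951 for the others. All 8 brush cell markers (Trpm5, Avil, Dclk1, Il25, Chat, Gnat3, Plcb2 and Ptgs1) were higher in brush than in EpCAM+ cells, with a summed level of 9170 to 10600 CPM (a count divided by its library's TMM-scaled size) in brush libraries, 35.2 to 83.8 CPM in EpCAM+ libraries and 40.2 to 187 CPM in CD45+ libraries. Chat drives the reporter, so its level only checks the sort. All 6 pan-leukocyte markers were lower in brush than in CD45+ cells, with summed levels of 14.4 to 37.3 CPM in brush, 0 to 3.21 CPM in EpCAM+ and 5110 to 8910 CPM in CD45+ libraries, and none of the 6 was at 0 in brush cells. Trp63, the master regulator of basal cells, averaged 151 ± 52.0 CPM in the EpCAM+ libraries (SD, n = 7).

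The promoters of 4 of the factors are shown first, because their letters hold short matches to the sites of the protein families discussed here or to a TATA box. Sequences are from RefSeq on GRCm38.p6, from 250 bases before to 50 bases after the annotated start, written 5′ to 3′ along the gene, and the table holds 9 promoters for 8 of the 10 factors. Pou2f3 and Sox9 have no entry. Capitals mark the matches: CACTTG (the reverse complement of CAAGTG, a core bound by HMX and NKX homeodomains) and ACTTCC (the reverse complement of the ETS core GGAAGT) in Ovol3, at chr7:30236716-30237015 on the minus strand, TGCAAAT (the last 7 letters of the POU octamer ATGCAAAT) and a run of TATATA in Spib, at chr7:44532022-44532321 on the minus strand, TATATA overlapping TATAAA in the first of 2 Hmx2 starts, at chr7:131548507-131548806 on the plus strand, and TTTGCAT (the reverse complement of ATGCAAA, the first 7 letters of the octamer) in Pou6f1, at chr15:100599935-100600234 on the minus strand.
Ovol3: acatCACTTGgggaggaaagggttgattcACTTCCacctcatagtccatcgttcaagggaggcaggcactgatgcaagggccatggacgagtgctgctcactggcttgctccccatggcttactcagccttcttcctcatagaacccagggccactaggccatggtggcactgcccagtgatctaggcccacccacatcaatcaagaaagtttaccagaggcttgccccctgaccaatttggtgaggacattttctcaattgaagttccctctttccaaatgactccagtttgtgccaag
Spib: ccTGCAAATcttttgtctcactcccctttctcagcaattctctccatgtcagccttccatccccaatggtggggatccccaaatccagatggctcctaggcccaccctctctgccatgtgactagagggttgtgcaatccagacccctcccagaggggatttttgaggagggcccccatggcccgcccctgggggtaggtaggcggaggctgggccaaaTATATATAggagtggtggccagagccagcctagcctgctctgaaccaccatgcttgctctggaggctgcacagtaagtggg
Hmx2: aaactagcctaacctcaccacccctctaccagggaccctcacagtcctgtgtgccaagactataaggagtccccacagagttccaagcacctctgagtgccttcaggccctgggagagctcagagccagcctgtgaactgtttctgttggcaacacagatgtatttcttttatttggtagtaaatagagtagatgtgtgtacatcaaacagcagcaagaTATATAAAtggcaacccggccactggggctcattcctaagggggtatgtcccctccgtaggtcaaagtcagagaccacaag
Pou6f1: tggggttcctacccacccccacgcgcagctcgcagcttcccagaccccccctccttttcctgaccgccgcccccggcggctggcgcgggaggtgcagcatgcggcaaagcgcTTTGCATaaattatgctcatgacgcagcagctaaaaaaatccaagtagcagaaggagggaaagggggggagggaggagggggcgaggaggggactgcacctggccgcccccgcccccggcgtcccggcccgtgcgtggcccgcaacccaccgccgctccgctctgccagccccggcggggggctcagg

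Each motif was searched on both strands, and the motifs were chosen after the promoters had been read. The whole octamer was in none of the 9 promoters and in 1.74% of all 32851 promoters of that length. Its first 7 letters were in 4.63% of all promoters and its last 7 in 4.02%, and each of these contains part of the other. The HMX core was in 1 of the 9 and in 13.6% of all, the ETS core in 2 of the 9 (Ovol3 and Spdef) and in 23.8% of all, and the E-box CAGCTG, the form bound by ASCL proteins, in none of the 9 and in 16.3% of all. The TATAAA of Hmx2 began 29 bases before the annotated start, and the TATATA runs of Spib began 31 and 29 bases before it. TATAAA was in 13.6% and TATATA in 5.67% of all promoters. These matches describe letters in a 300-base window and not binding. The RefSeq start of Ovol3 lies upstream of the gene as GENCODE vM21 draws it.

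All 10 factors were higher in brush than in EpCAM+ cells, and in each case the lowest brush library was above the highest EpCAM+ library. Across all 13418 genes tested, 18.3% were higher and 22.0% lower in brush cells (edgeR quasi-likelihood test, Benjamini-Hochberg adjusted p below 0.05). The median log2 fold change of the factors was 7.84, or 6.91 with factors at 0 in one group set to the lower bound of their change, against -0.06 for all genes. That count and median are descriptions. So is the lack of overlap in both contrasts, because its share over all genes is not given here. Of the 10, 5 (Pou2f3, Gfi1b, Hmx2, Hmx3 and Ovol3) passed the low-count filter through brush libraries alone and so had to differ, and the list was drawn up with earlier results of these data known, so it is not independent evidence of the direction. Against CD45+ cells all 10 were also called higher, where 23.4% of all genes were higher and 22.4% lower, and 9 did not overlap. Pou6f1 overlapped and its call was fragile, as given below. Both contrasts share the brush libraries. In bulk RNA, fewer cells of a type and less RNA per cell cannot be told apart, so a low level may stand for either.

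**Figure D1:**
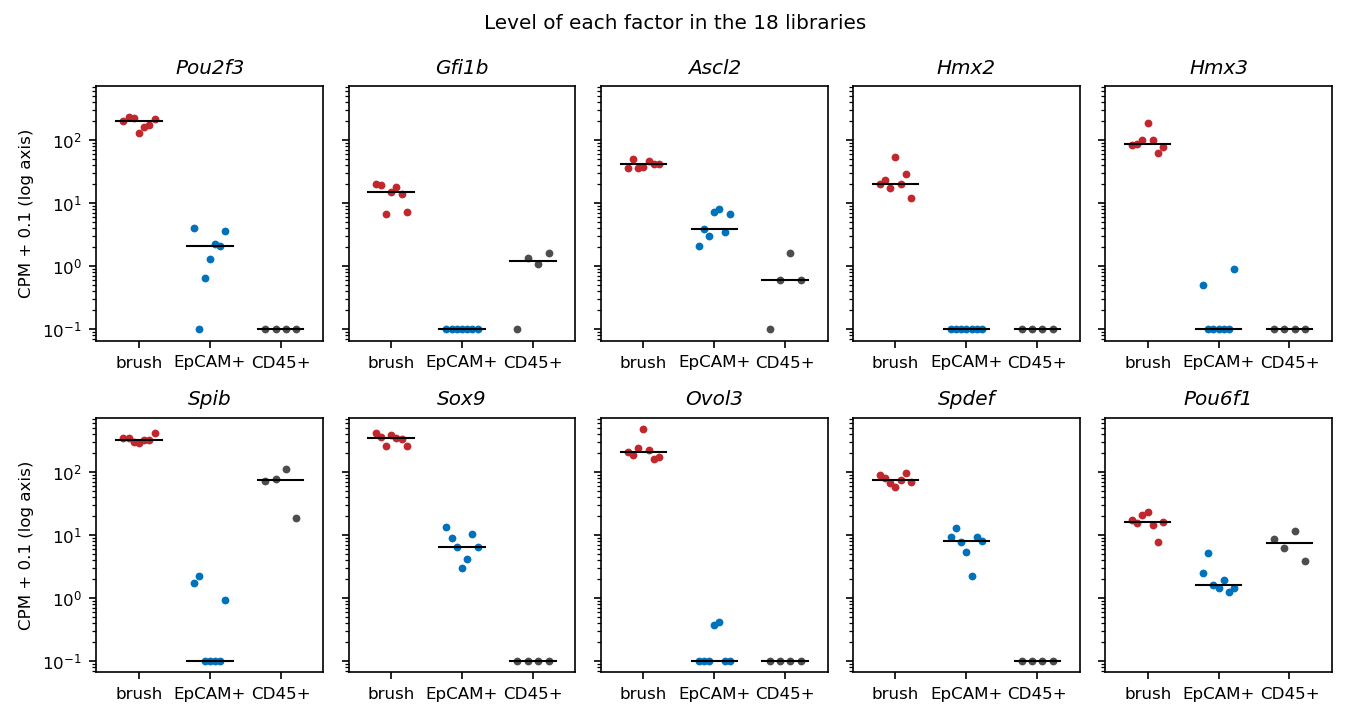
Level of each of the 10 factors in the 18 libraries, as CPM + 0.1 on a log axis, with one point per library for brush (7), EpCAM+ (7) and CD45+ (4) cells and a line at the group median. Points on the lowest line are libraries with 0 counts. In every panel the brush points lie above all EpCAM+ points, and only Pou6f1 has brush points level with CD45+ points.

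Pou2f3, the POU homeodomain factor required for tuft cells, was abundant in brush cells and near absent elsewhere. Its brush libraries ran from 132 CPM through a median of 200 to 232 CPM, a mean of 193 ± 37.1 (SD, n = 7). The EpCAM+ libraries ran from 0 through 2.02 to 4.01 CPM, a mean of 1.92 ± 1.47 (SD, n = 7) made of 49 counts in 6 libraries. No count was seen in the 4 CD45+ libraries. All brush libraries were high, and the lowest was brush replicate 4. The difference from EpCAM+ cells was 6.73 ± 0.52 on the log2 scale (SE, adjusted p = 2.51e-09), and brush cells had at least 1200-fold more than CD45+ cells, taking a floor of 3 counts over the group (adjusted p = 5.09e-09). Pou2f3 lies at chr9:43123939-43210369 on the minus strand (GRCm38).

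The ubiquitous relative Pou2f1 was higher in brush than in EpCAM+ cells by far less, 26.5 ± 6.09 against 13.0 ± 2.84 CPM (SD, n = 7 each; log2 fold change 1.04 ± 0.27, SE, adjusted p = 0.00379). Of 13 other POU genes listed, 3 passed the filter and Pou2f1 was the 1 called higher, with none lower. Pou2f2, the octamer factor of B cells, had 19.1 ± 6.17 CPM in CD45+ cells (SD, n = 4), 4 counts in all brush libraries and 0 in EpCAM+ cells. Coactivators of POU factors showed opposite distributions. Pou2af1, the octamer coactivator of B cells, averaged 82.3 ± 49.2 CPM in CD45+ cells (SD, n = 4) and 0.535 ± 0.881 CPM in brush cells (SD, n = 7). The gene listed as 1810046K07Rik, which current nomenclature calls Pou2af2, a partner of Pou2f3 in tuft cells, averaged 298 ± 78.6 CPM in brush, 0.417 ± 0.507 CPM in EpCAM+ (SD, n = 7 each) and 4.29 ± 2.46 CPM in CD45+ cells (SD, n = 4). Its brush level was above that of EpCAM+ cells by 9.62 ± 0.55 on the log2 scale (SE, adjusted p = 1.08e-11) and above that of CD45+ cells by 5.97 ± 0.58 (SE, adjusted p = 1.34e-08). The alias was matched from general knowledge after the table was seen.

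Ovol3, a zinc finger protein of the OVO family, had the largest fitted change of the list among the factors with counts in both brush and EpCAM+ cells. It ran from 158 through a median of 206 to 477 CPM in brush libraries, a mean of 237 ± 109 (SD, n = 7), with 5791 counts. EpCAM+ libraries held 3 counts, in 2 libraries, and CD45+ libraries none. With the counts of each group pooled over its summed library size, the ratio of brush to EpCAM+ was 1980, with a counting interval of 679 to 9620 (exact, 95%, counting error only; adjusted p = 1.33e-11), and brush cells had at least 1140-fold more than CD45+ cells (adjusted p = 2.99e-10). The EpCAM+ mean of 0.0826 CPM was 0.0514 without EpCAM+ replicate 4 and 0.0449 without replicate 5, and the log2 fold change of 10.88 became 11.6 without replicate 4. Brush replicate 4 alone reached 477 CPM, and the next highest library had 236 CPM. The brush mean without replicate 4 was 197 CPM.

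The other OVO genes had another distribution. Ovol1, an epithelial repressor, was lower in brush than in EpCAM+ cells, 11.5 ± 6.31 against 39.9 ± 20.9 CPM (SD, n = 7 each; log2 fold change -1.75 ± 0.47, SE, adjusted p = 0.00453), and Ovol2 did not pass the test (-1.03 ± 0.77, adjusted p = 0.301). By RefSeq, Ovol3 shares 91 bases of its span with Polr2i, a subunit gene of RNA polymerase II, and how reads in such overlaps were assigned is not given in the sources used here. Polr2i averaged 13.7 CPM in brush, 29.8 in EpCAM+ and 31.2 in CD45+ cells. The part of shared reads in the counts of either gene was not tested. The other neighbours of Ovol3, Tbcb (0.18 ± 0.42, adjusted p = 0.77) and Wdr62 (0.54 ± 0.48, adjusted p = 0.392), were not called between brush and EpCAM+ cells.

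Hmx2 and Hmx3 are homeobox genes best known from the inner ear and the hypothalamus, and they sit in tandem on chromosome 7, 2.7 kb apart on the plus strand (Hmx3 at chr7:131542867-131544925, Hmx2 at chr7:131548773-131558014). Hmx3 ran from 62.7 through 88.0 to 187 CPM in brush libraries, a mean of 100 ± 40.3 (SD, n = 7). EpCAM+ libraries held 4 counts in 2 libraries, a mean of 0.173 ± 0.318 CPM (SD, n = 7), and CD45+ libraries none. Only brush cells therefore had more than trace counts of Hmx3. The log2 fold change over EpCAM+ cells was 9.22 ± 0.59 (SE, adjusted p = 2.45e-10), and brush cells had at least 492-fold more than CD45+ cells (adjusted p = 4.54e-09). Without EpCAM+ replicate 7 the EpCAM+ mean was 0.0668 CPM and the log2 fold change 10.52.

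Hmx2, its neighbour, was present in all brush libraries. They held 20.3, 23.3, 17.3, 54.7, 20.1, 29.4 and 12 CPM in replicates 1 to 7, a mean of 25.3 ± 14 (SD, n = 7). It had 0 counts in all 11 other libraries. Brush cells thus had at least 204-fold more than EpCAM+ cells (adjusted p = 8.72e-08) and at least 117-fold more than CD45+ cells (adjusted p = 1.51e-06). Both genes were highest in brush replicate 4. The ratio of Hmx3 to Hmx2 CPM within a brush library, not corrected for length, ran from 2.13 in replicate 6 to 6.59 in replicate 7. Hmx1, the third gene of the family, had 0 counts in all 18 libraries. The next gene after Hmx2, the mitotic checkpoint gene Bub3, lies 2.4 kb away and was also higher in brush than in EpCAM+ cells, 311 against 114 CPM (log2 fold change 1.45 ± 0.23, SE, adjusted p = 1.92e-05), while Acadsb, 95.3 kb before Hmx3, was not called (0.3 ± 0.34, adjusted p = 0.516).

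Gfi1b, a zinc finger repressor of the red cell and platelet lineages that also marks tuft cells, had the fewest counts of the list in brush cells (399). Brush replicates 1 to 7 held 20.1, 19.5, 6.77, 15.1, 18, 14.1 and 7.14 CPM, a mean of 14.4 ± 5.51 (SD, n = 7). Not one count was found in EpCAM+ cells. The CD45+ libraries held 0, 1.25, 0.986 and 1.52 CPM, 20 counts in all. No library of another group reached the lowest brush library, replicate 3. By RefSeq, 2313 bases of the span of Gfi1b are shared with the long noncoding RNA gene Gm52548, so part of these counts could belong to that gene, which was not analysed here. Brush cells had at least 137-fold more than EpCAM+ cells (adjusted p = 2.13e-08), and the log2 fold change over CD45+ cells was 3.59 ± 0.59 (SE, adjusted p = 7.31e-05). Between the other groups, CD45+ cells had at least 11.6-fold more than EpCAM+ cells (adjusted p = 6.9e-05).

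Markers of red cells and platelets were low in the brush libraries. Of 8 listed genes 7 were in the table and 3 passed the filter, and none of the 3 was called between brush and EpCAM+ cells. The summed level of the list was 0 to 4.05 CPM in brush, 1.2 to 19.1 CPM in EpCAM+ and 166 to 1340 CPM in CD45+ libraries. Pf4, platelet factor 4, held 6 counts over all brush libraries against 612 ± 547 CPM in CD45+ cells (SD, n = 4). Gfi1, the sister gene of Gfi1b, had 6 counts in brush cells, 0 in EpCAM+ cells and 3.62 ± 5.26 CPM in CD45+ cells (SD, n = 4), too few for the test. Partners of GFI proteins in repression were present but less uneven: Hdac1 was higher in brush cells (1.5 ± 0.21, adjusted p = 3.61e-06), and the demethylase Kdm1a (0.01 ± 0.29, adjusted p = 0.991) and its corepressor Rcor1 (-0.22 ± 0.37, adjusted p = 0.676) did not pass the test.

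**Figure D2:**
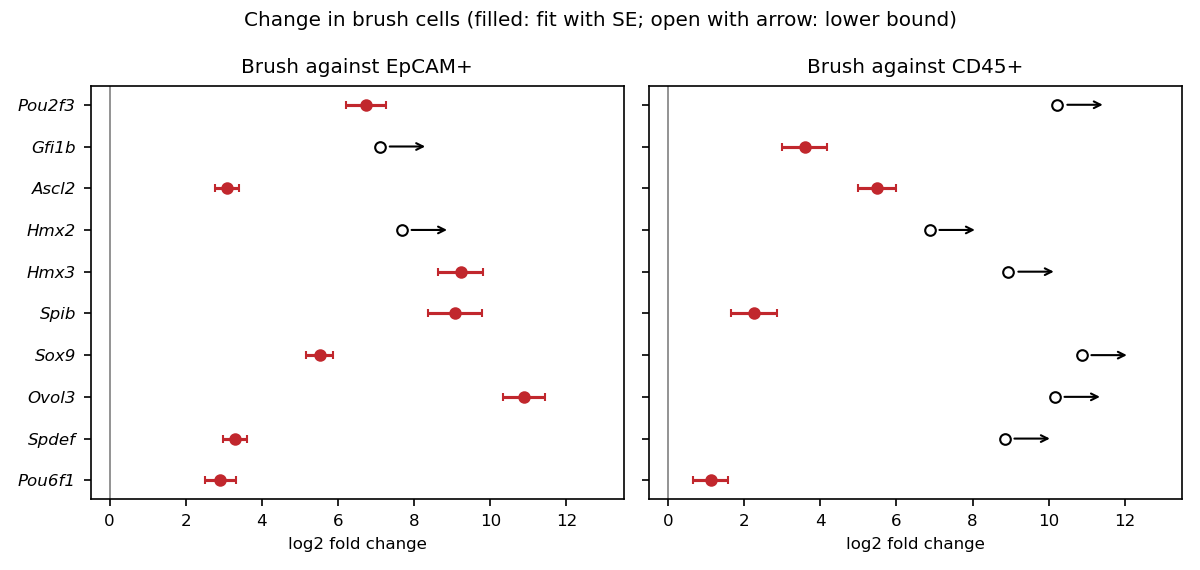
Log2 fold change of each factor in brush cells against EpCAM+ cells (left) and against CD45+ cells (right). Filled points are fitted values with their SE, and open points with an arrow are lower bounds against a group with 0 counts. Against EpCAM+ cells the fitted values run from 2.91 for Pou6f1 to 10.88 for Ovol3, and against CD45+ cells Pou6f1 (1.13) and Spib (2.26) are the smallest.

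Sox9, Spdef and Ascl2 were also counted in the EpCAM+ population, at lower levels. Sox9 is an HMG-box factor of cartilage, of gland progenitors and of several epithelia. It ran from 256 through 342 to 408 CPM in brush libraries, a mean of 335 ± 58.6 (SD, n = 7), and from 2.83 through 6.32 to 13.2 CPM in EpCAM+ libraries, a mean of 7.37 ± 3.62 (SD, n = 7). CD45+ libraries had 0 counts. The groups were far apart, by 5.52 ± 0.36 on the log2 scale (SE, adjusted p = 3.69e-10), and brush cells had at least 1860-fold more than CD45+ cells (adjusted p = 7.06e-11). EpCAM+ cells in turn had at least 38.4-fold more than CD45+ cells (adjusted p = 1.6e-07).

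The 8 cartilage markers summed to 0 to 5.96 CPM in brush, 0.269 to 59.7 CPM in EpCAM+ and 0.11 to 6.35 CPM in CD45+ libraries, and 2 of them were at 0 in brush cells. Col2a1, the main collagen of cartilage, held 1 count in the brush libraries and 75 in EpCAM+ cells, all in 1 library. Hapln1, which links proteoglycan to hyaluronan, was the marker that passed the filter, with 83 counts in 6 of 7 brush libraries. It averaged 2.35 ± 1.82 CPM in brush and 0.69 ± 1.58 CPM in EpCAM+ cells (SD, n = 7 each) and was not called (log2 fold change 1.73 ± 0.98, SE, adjusted p = 0.166). The part of such cells in the level of Sox9 was not tested. Gland and myoepithelial markers were lower in brush than in EpCAM+ cells for all 4 tested of 6 listed, with sums of 42.6 to 225 CPM against 3370 to 13300 CPM. Sox9 stands alone on chromosome 11 (chr11:112782224-112787760, plus strand), with its nearest coding gene with counts, the zinc transporter gene Slc39a11, 457.1 kb away and higher in brush cells (1.89 ± 0.42, adjusted p = 0.000799).

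Among 18 other SOX genes 9 were tested, and 3 were higher and 4 lower in brush than in EpCAM+ cells. Over all genes tested, 18.3% were higher and 22.0% lower. Sox8, the closest relative of Sox9 together with Sox10, was higher at 28.2 ± 8.87 against 0.277 ± 0.326 CPM (SD, n = 7 each; log2 fold change 6.7 ± 0.52, SE, adjusted p = 7.5e-10). Sox7, of the group known from blood vessels, was higher at 35.8 ± 12.1 against 0.718 ± 0.857 CPM (SD, n = 7 each; 5.72 ± 0.61, adjusted p = 7.52e-08), and Sox13 by 1.63 ± 0.49 on that scale (SE, adjusted p = 0.00967). Sox6, Sox15, Sox21 and Sox5 were the lower genes, with Sox15 and Sox6 at -5.58 ± 0.7 and -5.07 ± 0.51 (SE). Sox2, the airway identity factor, averaged 16 ± 11 CPM in brush and 27.9 ± 5.33 in EpCAM+ cells (SD, n = 7 each) and did not pass the test (-0.92 ± 0.38, adjusted p = 0.0596).

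Spdef is an ETS factor known for driving goblet cells. It ran from 56.6 through 74.6 to 95.8 CPM in brush libraries, a mean of 76.1 ± 13.6 (SD, n = 7), from 2.16 through 7.82 to 12.7 CPM in EpCAM+ libraries, a mean of 7.72 ± 3.34 (SD, n = 7), and had 0 counts in CD45+ libraries. Brush cells therefore held the larger amount of a gene known from goblet cells. The log2 fold change over EpCAM+ cells was 3.30 ± 0.31 (SE, adjusted p = 5.03e-08), brush cells had at least 458-fold more than CD45+ cells (adjusted p = 4.14e-10), and EpCAM+ cells at least 44.1-fold more than CD45+ cells (adjusted p = 1.09e-07). All 5 goblet cell genes tested of 7 listed went the other way, lower in brush cells, with summed levels of 12 to 18.2 CPM in brush, 225 to 1360 CPM in EpCAM+ and 5.75 to 19.2 CPM in CD45+ libraries. The mucin Muc5b averaged 3.11 ± 3.4 against 140 ± 121 CPM (SD, n = 7 each; log2 fold change -5.4 ± 0.72, SE, adjusted p = 1.75e-06), and Agr2, which folds mucins, 6.29 ± 3.84 against 163 ± 124 CPM (-4.81 ± 0.54).

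Ascl2 is a basic helix-loop-helix factor of intestinal stem cells and of follicular helper T cells. It ran from 36.6 through 41.9 to 50.5 CPM in brush libraries, a mean of 41.8 ± 5.32 (SD, n = 7), a ratio of highest to lowest of 1.38. EpCAM+ libraries ran from 2.0 through 3.82 to 8.02 CPM, a mean of 4.88 ± 2.36 (SD, n = 7), and CD45+ libraries held 0, 0.499, 1.53 and 0.508 CPM. The 3 groups did not overlap. The log2 fold change over EpCAM+ cells was 3.08 ± 0.32 (SE, adjusted p = 5.58e-08) and over CD45+ cells 5.49 ± 0.51 (adjusted p = 6.2e-09), and EpCAM+ cells were above CD45+ cells by 2.4 ± 0.48 (adjusted p = 0.00023). The CD45+ mean of 0.635 CPM fell to 0.335 without CD45+ replicate 3, and the last 2 log2 fold changes became 6.4 and 3.35. Follicular helper and innate lymphoid markers summed to 4.76 to 14.2 CPM in brush, 31.7 to 117 CPM in EpCAM+ and 327 to 957 CPM in CD45+ libraries, and Pdcd1, Gata3 and Il7r were at 0 in brush cells. Most of the brush and EpCAM+ sums was Bcl6. Its level averaged 9.34 ± 3.35 CPM in brush and 48.5 ± 28.0 CPM in EpCAM+ cells (SD, n = 7 each). CD45+ cells held 31.5 ± 15.9 CPM of Bcl6 (SD, n = 4).

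Ascl3, a relative of Ascl2 and a factor of ionocytes and gland ducts, had 0 counts in brush cells, while EpCAM+ cells held 7.6 ± 10.7 CPM (SD, n = 7), at least 60.3-fold more (adjusted p = 4.26e-05).

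Spib and Pou6f1 were the factors with CD45+ levels above those of EpCAM+ cells by more than traces. Spib is an ETS factor known from B cells, plasmacytoid dendritic cells and the M cells of the gut. Its brush libraries ran from 290 through 321 to 413 CPM, a mean of 334 ± 41.8 (SD, n = 7), and 17 counts in 3 EpCAM+ libraries gave a mean of 0.648 ± 0.894 CPM (SD, n = 7). CD45+ replicates 1 to 4 held 71.8, 78.0, 110 and 18.5 CPM, a mean of 69.5 ± 37.8 (SD, n = 4). The order was brush, then CD45+, then EpCAM+ cells, with no overlap. Brush cells were above EpCAM+ cells by 9.06 ± 0.71 on the log2 scale (SE, adjusted p = 7.87e-10) and above CD45+ cells by 2.26 ± 0.61 (adjusted p = 0.00397), and EpCAM+ cells differed from CD45+ cells by -6.80 ± 0.69 (adjusted p = 2.63e-08). Without EpCAM+ replicate 2 the EpCAM+ mean was 0.402 CPM and the EpCAM+ contrasts became 9.98 and -7.72.

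B cell markers separated brush cells from the Spib-positive hematopoietic libraries. Cd79a, Ms4a1 and Pax5 had 0 counts in all 7 brush libraries, and the 6 listed markers were all lower in brush than in CD45+ cells. The list summed to 16.8 to 54.7 CPM in brush, 0 to 3.46 CPM in EpCAM+ and 445 to 1890 CPM in CD45+ libraries. Nearly all of the brush sum was Cd79b, a chain of the B cell receptor complex, with 31.8 ± 13.2 CPM in brush cells and 1.01 ± 0.551 in the EpCAM+ group (SD, n = 7 each; log2 fold change 4.98 ± 0.46, SE, adjusted p = 8.2e-09). Cd79a was called lower in brush cells on 0 against 8 counts, a call that was lost in 21 of 27 alternative settings. Among CD45+ libraries the B cell sum was 1430, 1380, 1890 and 445 CPM in replicates 1 to 4. Replicate 4 was lowest and replicate 3 highest for both the markers and Spib. Of replicates 1 and 2, the first had the higher marker sum and the second the higher Spib level. The part of B cells in the CD45+ level of Spib was not tested. Of the plasmacytoid dendritic cell markers, Siglech held 0.82 ± 0.981 CPM in brush cells (SD, n = 7) against 51.0 ± 18.5 CPM in CD45+ cells (SD, n = 4). The list of 6 summed to 152 to 196 CPM in brush, 31.5 to 135 CPM in EpCAM+ and 437 to 538 CPM in CD45+ libraries. Between brush and EpCAM+ cells 3 of the 5 tested were higher and 1 lower. Most of the brush sum was Tcf4, a broadly used factor (143 ± 20.5 CPM, SD, n = 7). Ptprc, which encodes CD45 itself, was counted in the brush libraries although the gate was CD45 negative, at 21 ± 6.82 CPM in brush (SD, n = 7) and 962 ± 368 CPM in CD45+ cells (SD, n = 4), with 1 count in EpCAM+ cells.

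**Figure D3:**
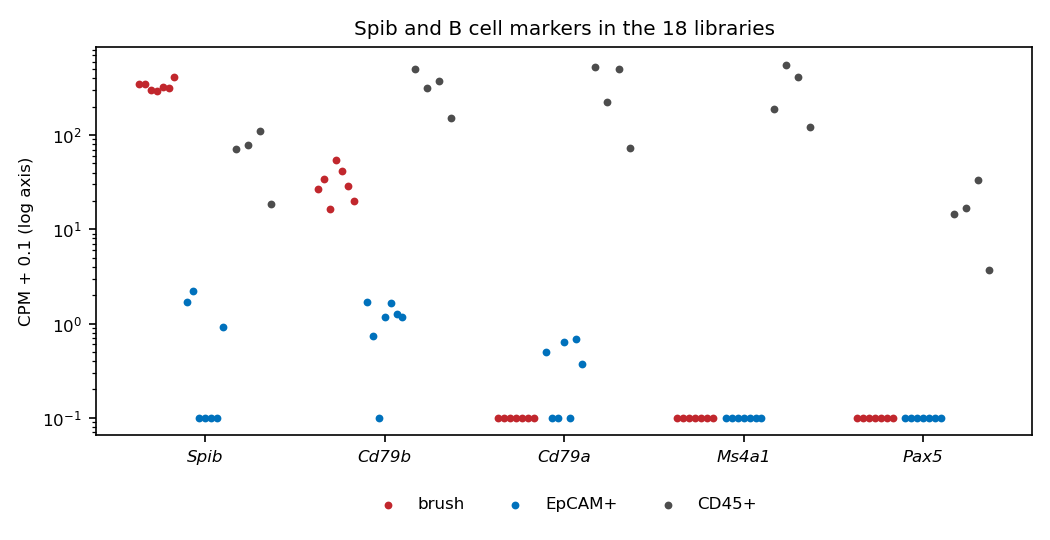
Spib and 4 B cell markers in the 18 libraries, as CPM + 0.1 on a log axis, with one point per library. Brush libraries lie at 290 to 413 CPM for Spib and on the line of 0 counts for Cd79a, Ms4a1 and Pax5, while CD45+ libraries hold all 5 genes.

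Within the ETS family, 19 of 23 other genes were tested between brush and EpCAM+ cells. Of these, 6 were higher, 4 lower and 9 not called, where 18.3% of all genes were higher and 22.0% lower. Etv1 was the ETS gene outside the list with the largest rise, 271 ± 62.9 against 4.52 ± 2.55 CPM (SD, n = 7 each; log2 fold change 5.89 ± 0.36, SE, adjusted p = 2.53e-11). The epithelial ETS factors Ehf and Elf3 were abundant in both, at 1060 ± 196 against 282 ± 97.0 CPM and 1570 ± 504 against 590 ± 259 CPM (SD, n = 7 each), and were higher by 1.91 ± 0.32 and 1.41 ± 0.41. Etv6 rose by 2.31 ± 0.26 (SE, adjusted p = 1.31e-07), and Elf4 and Fli1 were the other genes called higher. Fli1 was called on 7 counts in 4 brush libraries against 0 in EpCAM+ cells, while CD45+ cells averaged 89.6 ± 32.5 CPM (SD, n = 4). Ets1, Ets2, Erf and Elk3 were lower. Spi1, which encodes PU.1 and is the closest relative of Spib with Spic, averaged 96.3 ± 56.9 CPM in CD45+ cells (SD, n = 4) and held 6 counts in brush and 1 in EpCAM+ cells. Spic had 0 counts in brush and EpCAM+ cells. Spib was thus the member of the PU.1 group counted in brush cells at more than traces.

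Pou6f1, a POU homeodomain factor known mostly from the brain, had the smallest differences of the list. Brush libraries ran from 7.47 through 16.1 to 22.6 CPM, a mean of 16.2 ± 4.84 (SD, n = 7), and EpCAM+ libraries from 1.15 through 1.49 to 5.1 CPM, a mean of 2.10 ± 1.39 (SD, n = 7). CD45+ replicates 1 to 4 held 8.62, 5.98, 11.2 and 3.81 CPM, a mean of 7.40 ± 3.19 (SD, n = 4). The brush and CD45+ ranges overlapped, and brush and EpCAM+ ranges did not. Brush cells were above EpCAM+ cells by 2.91 ± 0.40 on the log2 scale (SE, adjusted p = 2.68e-06), and EpCAM+ cells differed from CD45+ cells by -1.78 ± 0.45 (adjusted p = 0.00235). The difference between brush and CD45+ cells, 1.13 ± 0.46, had an adjusted p of 0.0473. It lost its call in 16 of 28 alternative settings, in 12 of them by leaving out 1 library (any of brush replicates 1 to 5 and 7, EpCAM+ 1, 3 and 7 and CD45+ 1, 2 and 4), with log2 fold changes of 0.88 to 1.17 and adjusted p of 0.0508 to 0.163 where it was lost.

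Between the 2 reference populations the factors were divided. EpCAM+ cells were higher than CD45+ cells for 4 factors (Pou2f3, Ascl2, Sox9 and Spdef) and lower for 3 (Gfi1b, Spib and Pou6f1), where 22.5% of all genes were higher and 18.1% lower. Pou2f3 was at least 9.36-fold higher in EpCAM+ than in CD45+ cells (adjusted p = 0.000498). Hmx3 (2.51 ± 1.41, adjusted p = 0.175) and Ovol3 (adjusted p = 0.188) did not pass the test, and Hmx2 had no count in either group. As a share of the brush mean, the EpCAM+ mean was 0 for Gfi1b and Hmx2, 0.0348% for Ovol3, 0.173% for Hmx3, 0.194% for Spib, 0.998% for Pou2f3, 2.2% for Sox9, 10.1% for Spdef, 11.7% for Ascl2 and 13.0% for Pou6f1. The shares of Ovol3, Hmx3 and Spib rest on 3, 4 and 17 EpCAM+ counts. How many eGFP-positive cells the EpCAM+ gate took in was not tested.

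Levels per transcript length can be compared between genes within brush cells, on the TPM scale (transcript abundance per length, from the deposited RSEM tables). Ovol3 was first at 419 ± 58.1 TPM, followed by Spib at 167 ± 69.2, Sox9 at 100 ± 29.3, Pou2f3 at 87.7 ± 36.9 and Hmx3 at 86.7 ± 13.3 TPM (SD, n = 7 each). Spdef (60.6 ± 25.9), Ascl2 (38.2 ± 13.2), Hmx2 (20.6 ± 6.55), Gfi1b (16.4 ± 12.6) and Pou6f1 (7.05 ± 3.51 TPM) came next. This scale divides by length, and the median effective length was 409 bases for Ovol3 against 3813 for Sox9. Without that division Ovol3 averaged 237 CPM, below Spib (334) and Sox9 (335), so its first place depends on the length used. Whether that length holds for Ovol3 was not tested. The step from Ovol3 to Spib, that from Spib to Sox9 and that from Spdef to Ascl2 held in 7 of 7 libraries. The other neighbours changed places in at least 1 library. Hmx3 was above Spdef and Ascl2 above Hmx2 in 6 of 7. Sox9 was above Pou2f3, Pou2f3 above Hmx3, Hmx2 above Gfi1b and Gfi1b above Pou6f1 in 5 of 7. The effective length of Gfi1b was 452 bases in brush replicate 6 (39.0 TPM) and 1526 in replicate 4 (5.67 TPM). Its TPM and places thus depend on that length as well as on few counts. In EpCAM+ cells the order was led by Spdef (4.86 ± 2.84 TPM), Ascl2 (2.67 ± 1.16) and Sox9 (1.74 ± 1.09, SD, n = 7 each), and in CD45+ cells by Spib (22.4 ± 16.4 TPM) and Pou6f1 (2.75 ± 1.92, SD, n = 4 each).

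**Figure D4:**
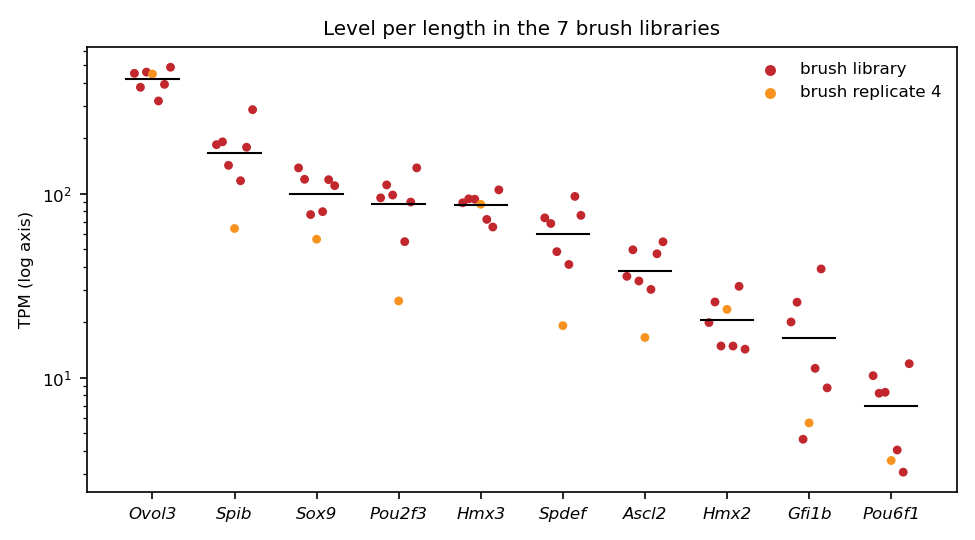
Level per transcript length of each factor in the 7 brush libraries, as TPM on a log axis, ordered by the mean, which the line marks. Brush replicate 4 is orange. Ovol3 lies at 319 to 487 TPM, above every Spib point. Replicate 4 is lowest for Spib, Sox9, Pou2f3, Spdef and Ascl2 but within the range of the others for Ovol3, Hmx3 and Hmx2.

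The factors varied to different degrees between brush libraries. The coefficient of variation of CPM was 12.5% for Spib, 12.7% for Ascl2, 17.5% for Sox9, 17.8% for Spdef and 19.2% for Pou2f3, and 29.9% for Pou6f1, 38.4% for Gfi1b, 40.3% for Hmx3, 46.0% for Ovol3 and 55.3% for Hmx2. Counting alone would give 18.8% for Gfi1b and 16.7% for Pou6f1, the factors with the fewest counts, and 3.7 to 12.6% for the other 8. Without brush replicate 4 the variation of Ovol3 was 15.0%, that of Hmx3 16.6% and that of Hmx2 28.5%, while that of Gfi1b was 42.3%. Leaving out that library thus narrowed Ovol3, Hmx3 and Hmx2 and not Gfi1b. On the TPM scale the same library stood at 447 for Ovol3, 87.5 for Hmx3 and 23.5 for Hmx2, inside the range of the other 6. It was below that range for Pou2f3 (26.1), Spib (64.7), Sox9 (56.5), Spdef (19.2) and Ascl2 (16.5). Relative to those factors, Ovol3, Hmx3 and Hmx2 were thus still high in brush replicate 4. That library had the fewest counts of its group and the largest share of ribosomal RNA (63.5%), and the part of these in its values was not tested.

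The genes with the pattern most like that of Pou2f3 were sought among 2435 genes with at least 50 CPM in brush cells, by the mean absolute difference in log2(CPM + 1) over the 18 libraries after centring on the brush mean. They were St18 (0.39), Mn1 (0.41), Dgki (0.43), Adgrf3 (0.49) and Ttc25 (0.50). St18, a zinc finger factor, averaged 190 ± 30.2 CPM in brush and 0.718 ± 0.73 CPM in EpCAM+ cells (SD, n = 7 each), and Mn1, a transcriptional coregulator, 185 ± 35.0 and 0.975 ± 1.0 CPM (SD, n = 7 each). Among the factors themselves, Hmx3 (0.64), Sox9 (0.66) and Ovol3 (0.83) were the most like Pou2f3, and Gfi1b (2.18) and Pou6f1 (3.03) the least. With a pseudocount of 1, a gene of low level cannot fall as far as Pou2f3 does, which bears on Gfi1b and Pou6f1.

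Beyond the 10 factors, 61 relatives of the same families in the count table had no common direction. Of 35 tested between brush and EpCAM+ cells, 10 were higher, 10 lower and 15 not called, with a median log2 fold change of -0.04. Over all genes tested, 18.3% were higher and 22.0% lower. Other regulators of tuft or taste cells and their cofactors numbered 13 tested of 17 listed, of which 6 were higher, 1 lower and 6 not called. The higher ones included Nfatc1, a calcium-responsive factor, at 125 ± 18.9 against 6.26 ± 3.65 CPM (SD, n = 7 each; 4.31 ± 0.35, adjusted p = 1.5e-09), and the lower one was the Notch target Hes1 (-5.68 ± 0.86, adjusted p = 1.08e-05). Atoh1, required for secretory cells of the gut, had 0 counts in brush and EpCAM+ cells. Runx1 (0.18 ± 0.22, adjusted p = 0.552) did not pass the test.

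**Figure D5:**
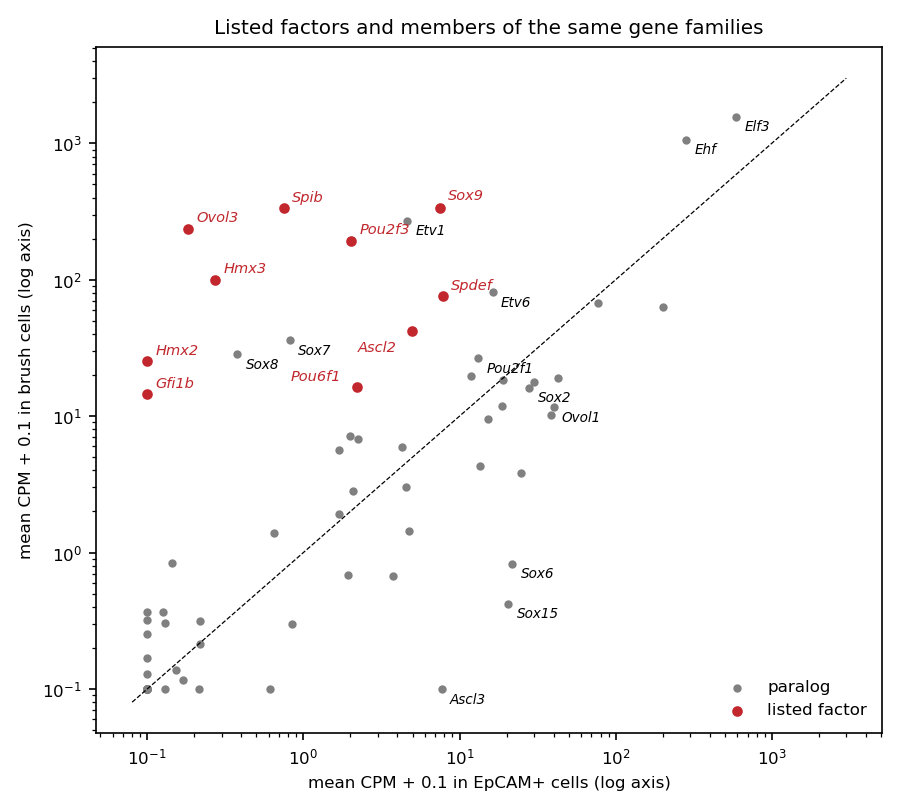
Mean level in brush against EpCAM+ cells of the 10 listed factors (red) and of other genes of the same families (grey), as CPM + 0.1 on log axes. The dashed line marks equal levels. All red points lie above it, and grey points lie on both sides, with Etv1, Sox7 and Sox8 above and Sox6, Sox15 and Ascl3 below.

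Regulators of the other airway cell types were mostly lower in brush cells or not called. Of 5 basal cell regulators 4 were lower and none higher, led by Snai2 (-7.29 ± 0.7) and Trp63 (-6.35 ± 0.48), against 22.0% of all genes lower. Of 6 secretory cell regulators tested 1 was higher (Elf3) and 1 lower (Hes1), and Foxa1 (-0.65 ± 0.34, adjusted p = 0.137) did not pass the test. Of 5 regulators of ciliated cells 2 were higher, Rfx3 (2.21 ± 0.35) and Myb (2.0 ± 0.38), and 2 lower, Foxj1 (-3.86 ± 0.66) and Rfx2 (-1.57 ± 0.37). Of 3 ionocyte regulators Ascl3 was lower and none higher. Near the 10 factors in the genome, 18 flanking coding genes were looked up and 14 tested between brush and EpCAM+ cells, with 6 higher, none lower and 8 not called, where 18.3% of all genes were higher and 22.0% lower. The higher ones were Bub3, Slc39a11, Mybpc2 (5.36 ± 0.76), a muscle protein gene 1.3 kb from Spib, Pacsin1 (2.85 ± 0.66), 3.3 kb from Spdef, and Gtf3c5 (0.92 ± 0.36) and Tspan32 (2.44 ± 0.97), which lost their call in 17 of 28 and 17 of 27 alternative settings. Pold1, 0.7 kb from Spib on the other side, was not called (0.11 ± 0.39, adjusted p = 0.856).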

How the data were processed

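The deposited table of whole-number counts was used as the authors left it, unnormalized, for 26327 gene symbols in 18 libraries. Per the file headers, RSEM gave expected counts, TPM, FPKM and effective lengths for each library. TPM from those deposited tables ordered factors within a group, FPKM was an alternative for that order, and the deposited expected counts, rounded to whole numbers, were an alternative for the tests. A deposited table of normalized values was not used here. The submitters' processing notes name mm10 as the genome build and list RSEM 1.2.21, Picard 1.1073 and STAR 2.4.2a beside DESeq2 and featureCounts without saying which made what. For the counting, annotation and strand were not given in the sources used here, so reads in overlapping genes could fall to either.

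Counts were fitted with edgeR 4.0.16 (R 4.3.3) over all 18 libraries with group as the only term, TMM scaling and the filterByExpr filter, which kept 13418 genes and removed 12909. It needed 2.43 CPM in 4 libraries. The quasi-likelihood F test was adjusted by Benjamini-Hochberg over all genes tested, with a threshold of 0.05, and SE is the absolute log2 fold change over the square root of F. The fit was tested on simulated data. Bounds against 0 use a floor of 3 counts over the group, and intervals and floors cover counting error only. Coordinates are GENCODE vM21 on GRCm38, and promoters are RefSeq on GRCm38.p6.

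The members and gene lists were chosen with earlier results of these data known. Named genes are the members, list genes with the largest changes or needed to read a member, the 5 genes most like Pou2f3 and neighbours in the genome. Alternatives were other size factors, no low-count filter or a minimum of 10 CPM, a fit of only the 2 groups compared, limma 3.58.1 voom, DESeq2 1.42.0, expected counts, leaving out ribosomal RNA genes, each library in turn or 3 libraries together (brush 4, EpCAM+ 5 and CD45+ 1), and a replicate block.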

Additional observations from a re-analysis of the deposited data

Results flagged for a closer look

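In groups of 4 or 7 libraries, a level was singled out where its gap to the nearest other library, divided by the range of the group, passed the 95% critical value of Dixon's test. Of 22 sets of levels tested 4 held such a library, and chance alone gives about 1 in 20. Brush replicate 4 accounted for 3 of the 4: Ovol3 at 477 CPM (nearest 236, ratio 0.756), Hmx3 at 187 CPM (nearest 101, ratio 0.694) and Hmx2 at 54.7 CPM (nearest 29.4, ratio 0.592). In TPM the same library stood at 447, 87.5 and 23.5 for these genes, inside the range of the other brush libraries. It was below their range for Pou2f3, Spib, Sox9, Spdef and Ascl2. That library had 63.5% of its counts in ribosomal RNA genes, whose part in the CPM was not tested. The last was Pou6f1 in EpCAM+ replicate 2, at 5.1 CPM (nearest 2.41, ratio 0.683). Without brush replicate 4 all 10 factors were called higher in brush than in EpCAM+ cells, as were 2513 of all 13402 genes tested.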

How the results depend on the processing

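All 10 factors stayed called and higher in brush than in EpCAM+ cells in each alternative (280 of 280 values). In the main fit 5 of them passed the low-count filter through brush libraries alone and so had to differ. The list was also drawn up with earlier results of these data known, so the counts of factors given here are descriptions. Against CD45+ cells 264 of 280 values kept their call, and the 16 lost were all of Pou6f1. Between EpCAM+ and CD45+ cells 247 of 248 values kept direction and call, and the exception was Ovol3, not called at 2.11 (adjusted p = 0.188), which with limma voom was -0.02 (adjusted p = 0.99). The cause was not tested. A fit of only those groups left Pou2f3, Gfi1b, Hmx3 and Ovol3 untested, and Hmx2 had no count in either. Ranking brush levels by raw counts per library size and effective length left 6 of 10 factors at their TPM rank, and a pseudocount of 0.1 kept 3 of the 5 genes most like Pou2f3. No scaling moved the median of all genes by more than 0.1. Leaving out single libraries gave 10 factors higher and 0 lower in every case against EpCAM+ cells, 9 to 10 higher and 0 lower against CD45+ cells, and 4 higher and 3 lower between EpCAM+ and CD45+ cells.

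Whether the replicate numbers pair the libraries could not be told from these values. Correlations of deviations between libraries of one number ran from -0.198 to 0.263. Of 7 brush libraries, 2 matched best the EpCAM+ library of their number. With the replicate block 10 factors were higher and 0 lower in both brush contrasts, 4 were higher and 3 lower between EpCAM+ and CD45+ cells, and no factor's call changed. Over all genes the block gave 2374 higher and 2661 lower calls between brush and EpCAM+ cells, against 2459 and 2952 without it. Depth limited Gfi1b, with 399 counts in all brush libraries and 0 in EpCAM+ cells, and every factor at 0, whose folds are lower bounds.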
